A study of Mus musculus with 9 samples.

Results

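CpG methylation was described at 10 genes that mark GABA neurons and their interneuron subtypes, in DNA from the nucleus accumbens of mice. The genes were chosen by name, 10 of the 49554 genes that RefSeq places on the autosomes and the X chromosome. Gad1, Gad2 and Slc32a1 are 3 pan-GABA genes, which GABA neurons use in general. Pvalb, Sst, Npy, Nos1, Lhx6, Nkx2-1 and Vip are 7 markers of interneuron subtypes. Each gene was read over its start window (the start and 1000 bp on each side), over its body (the rest of the gene) and in tiles of 1000 bp. All 10 genes passed the minimum of 3 CpGs and 20 calls in every library at both start and body.

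The data are whole-genome bisulfite sequencing of 9 libraries, each from frozen tissue punches of male C57BL/6J mice aged 8 weeks. By their labels, libraries 2, 3, 4, 5 and 8 are Control (n = 5) and libraries 2, 3, 6 and 7 are Susceptible (n = 4). The treatment was social defeat, 10 daily encounters with an aggressive CD1 male, and the same treatment text accompanies every library. Neither the handling of Control animals nor the score behind susceptibility is given in the sources used here, nor whether each punch came from a separate animal, so p-values measure the spread between these libraries. Bisulfite leaves methylated cytosines as C, so a level is the share of calls read as C, and hydroxymethylated cytosines were not told apart from methylated ones. Cytosines that escape conversion also read as C, and no conversion rate was examined here. In a punch that mixes cell types, a share of cells with unmethylated copies and partial methylation within each cell cannot be told apart.

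GABA is made from glutamate by the enzymes GAD67 and GAD65, products of Gad1 and Gad2, and is loaded into vesicles by the transporter that Slc32a1 encodes. In the nucleus accumbens most neurons are GABAergic projection neurons, and interneurons are a minority. The interneurons are told apart by what they express, such as the calcium-binding protein parvalbumin, the peptides somatostatin and neuropeptide Y together with neuronal nitric oxide synthase, or, rarely here, the peptide VIP. Promoters rich in CpGs are usually unmethylated in most tissues whether or not the gene is active, while promoters poor in CpGs are methylated in many of the cells that do not use them.

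Listed calls ran from 313475624 to 430312082 in Control and from 432409939 to 570984634 in Susceptible libraries, with no cytosine listed under 10 calls. Listed cytosines ran from 13446563 to 19536874 in Control and from 19705746 to 22631489 in Susceptible libraries. Both counts separate the groups without overlap, and the part of depth in the differences between the groups was not tested. The level over autosomes and X ranged from 74.6 to 77.1%. The strands of a CpG disagreed more in Control 5 and Control 8 (18.4 and 19.7 times binomial noise) than in the other libraries (2.38 to 6.11). Susceptible 7 stood apart in the marker lists. Its mean body level over 8 striatal projection neuron genes was 68.9%, the highest of the 9 libraries, and 6 of those 8 genes were highest there. The same library had the lowest mean body level over the cortical projection neuron, oligodendrocyte, astrocyte and microglia genes, 6 in each list. Main counts that moved without it are given both ways. At starts, 7 of the 8 striatal and 4 of the 6 cortical projection neuron genes read under 10%, against 1 oligodendrocyte, 0 astrocyte and 0 microglial genes of 6 each. The lists also differ in CpG content, with medians of 102.5, 66.5, 38.5, 38.5 and 29 CpGs in that order, so these counts are no check of the tissue.

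The 250 bases before 6 starts are shown because they span the range of levels described here, from Gad1 near 0 to Nos1 near full methylation. They are the RefSeq sequences of assembly GRCm38.p6, read 5′ to 3′ on the strand of the gene, and capitals mark the CGs that can be methylated. All 395730 positions that the files list inside RefSeq promoters fall on a CG of this assembly. Gad1 lies at chr2:70561879-70562128 (plus strand), Sst at chr16:23890845-23891094 (minus) and Vip at chr10:5638968-5639217 (plus). Nos1 lies at chr5:117866589-117866838 (plus). Pvalb has 2 starts in the table, with the upstream stretch at chr15:78206401-78206650 and the downstream stretch at chr15:78204238-78204487 (minus).
Gad1: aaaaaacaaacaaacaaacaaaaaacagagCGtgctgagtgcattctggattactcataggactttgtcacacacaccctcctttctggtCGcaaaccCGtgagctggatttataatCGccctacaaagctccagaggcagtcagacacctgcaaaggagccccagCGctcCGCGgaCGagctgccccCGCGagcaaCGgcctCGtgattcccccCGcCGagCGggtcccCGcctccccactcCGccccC
Sst: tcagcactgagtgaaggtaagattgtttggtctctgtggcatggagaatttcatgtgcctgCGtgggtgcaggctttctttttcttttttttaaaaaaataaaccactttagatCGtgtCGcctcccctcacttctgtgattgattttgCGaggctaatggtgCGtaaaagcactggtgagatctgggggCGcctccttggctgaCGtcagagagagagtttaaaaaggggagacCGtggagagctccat
Vip: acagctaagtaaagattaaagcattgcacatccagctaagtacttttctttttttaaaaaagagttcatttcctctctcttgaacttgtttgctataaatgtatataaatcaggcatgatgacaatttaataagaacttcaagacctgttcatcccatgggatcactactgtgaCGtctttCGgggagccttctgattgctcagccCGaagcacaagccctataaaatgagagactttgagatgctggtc
Nos1: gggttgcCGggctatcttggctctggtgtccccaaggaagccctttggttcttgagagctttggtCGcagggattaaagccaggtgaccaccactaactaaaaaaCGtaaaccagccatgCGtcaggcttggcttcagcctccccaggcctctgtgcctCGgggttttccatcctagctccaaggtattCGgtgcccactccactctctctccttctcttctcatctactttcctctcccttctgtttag
Pvalb upstream start: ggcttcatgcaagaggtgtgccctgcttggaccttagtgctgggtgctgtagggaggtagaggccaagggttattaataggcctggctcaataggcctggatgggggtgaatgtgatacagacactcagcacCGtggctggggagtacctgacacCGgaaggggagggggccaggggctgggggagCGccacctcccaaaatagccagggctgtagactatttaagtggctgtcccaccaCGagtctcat
Pvalb downstream start: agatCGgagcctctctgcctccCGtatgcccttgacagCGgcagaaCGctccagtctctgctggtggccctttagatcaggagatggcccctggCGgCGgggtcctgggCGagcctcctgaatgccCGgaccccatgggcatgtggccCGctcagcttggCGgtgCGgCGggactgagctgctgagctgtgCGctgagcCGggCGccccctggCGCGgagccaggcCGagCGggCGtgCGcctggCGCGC
The stretches hold 17 CGs before Gad1, 8 before Sst, 3 before Vip, 6 before Nos1, 4 before the upstream Pvalb start and 23 before the downstream one. The Sst stretch contains the palindrome TGACGTCA, the cyclic AMP response element, 48 bases before the start. This motif, read on both strands, occurs in 1.80% of 32619 RefSeq promoter windows of 300 bases. The shorter core TGACG, which every TGACGTCA also contains, occurs in 20.9% of them and is found before Vip and Nos1 too.

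At their starts the 10 genes covered nearly the whole scale. Pan-GABA genes read under 2% on average, Lhx6 and Nkx2-1 under 3%, Npy and Sst were low to intermediate, Vip was intermediate, and Pvalb and Nos1 were methylated at over 90%. Values below are listed in the order Control 2, 3, 4, 5, 8 and then Susceptible 2, 3, 6, 7, and ± is the SD over all 9 libraries unless a group is named. They are descriptions without a test, since the genes were picked by name.

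**Figure D1:**
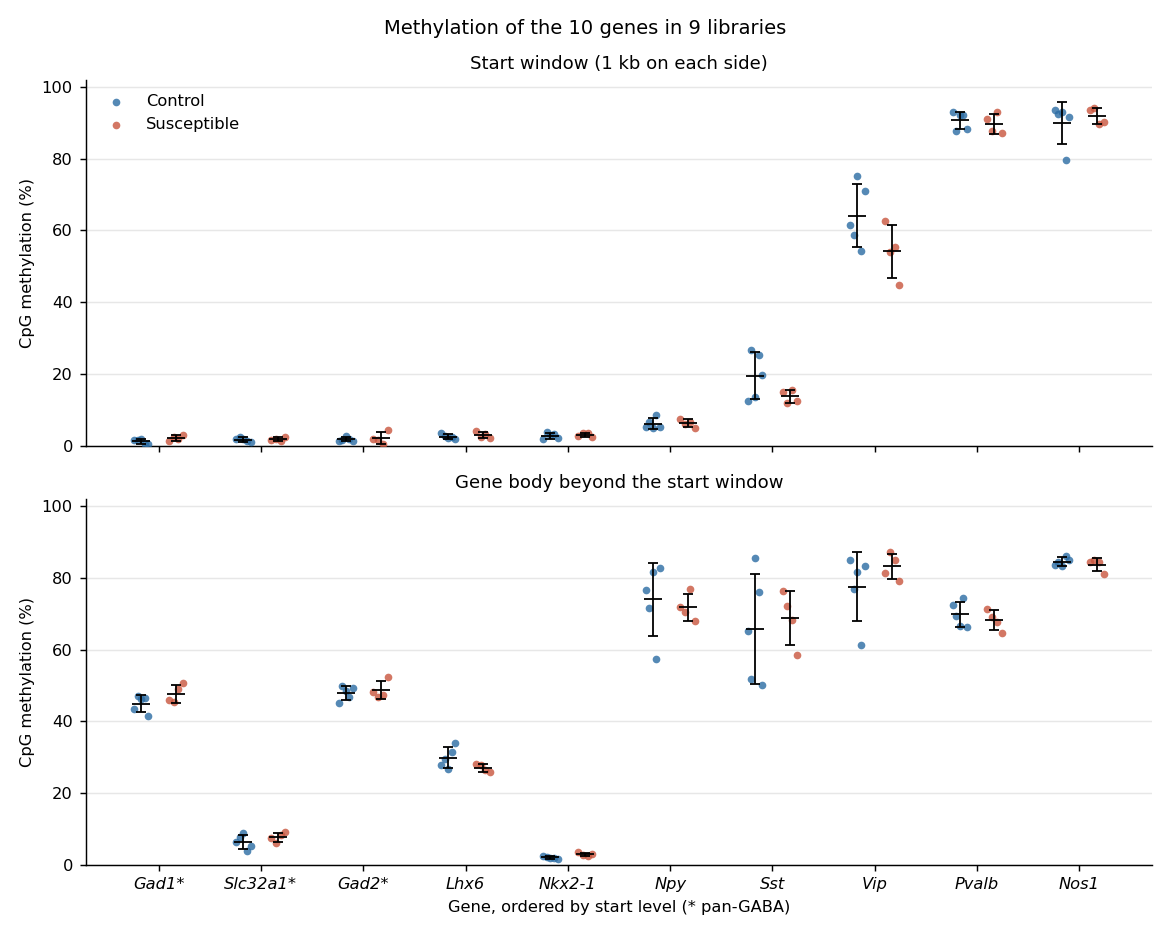
CpG methylation (%) of the 10 genes in each library, at the start window (upper) and in the gene body (lower); points are libraries, bars the group mean ± SD, blue Control (n = 5) and red Susceptible (n = 4), and stars mark pan-GABA genes. Starts run from 1.62% in Gad1 to 90.8% in Nos1, and the groups overlap at every start and body.

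Gad1 (chr2:70561303-70602014, plus strand) encodes GAD67, the enzyme that makes most of the GABA of the cell. Its start window holds 112 listed CpGs and read 1.64, 1.48, 1.89, 0.563 and 0.396% in Control and 1.37, 2.42, 1.76 and 3.10% in Susceptible libraries, from 2032 to 3812 calls. The mean was 1.62 ± 0.84%, and the highest value was that of Susceptible 7. Gad2 (chr2:22621015-22693877, plus strand) encodes GAD65, which makes GABA at the synapse. Its start of 90 CpGs read 1.31, 1.71, 2.79, 1.99 and 1.34% in Control and 1.79, 1.61, 0.566 and 4.48% in Susceptible libraries. Susceptible 7 was again the highest and Susceptible 6 the lowest, so the Susceptible group enclosed all Control values. Slc32a1 (chr2:158607260-158615747, plus strand), the vesicular GABA transporter, had 144 CpGs and read 1.88, 2.49, 1.97, 1.27 and 0.952% in Control and 1.64, 1.74, 1.38 and 2.56% in Susceptible libraries. The 3 starts could not be ordered, as neighbouring means (1.62, 1.77 and 1.95%) differed by less than their spread.

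Their bodies differed far more than their starts. The Slc32a1 body read 6.99 ± 1.74% over 220 CpGs, lower than all but 1.05% of the 32338 bodies tested. Gad1 and Gad2 bodies read 46.2 ± 2.72% and 48.2 ± 2.13%, near the lowest 5.15 and 5.58% of bodies, where the median of all bodies was 85.4%. The Gad1 body read 43.3, 47.1, 46.2, 46.5 and 41.5% in Control and 45.8, 45.4, 48.95 and 50.7% in Susceptible libraries, so Susceptible 7 was the highest there too. The Gad2 body read 45.0, 49.8, 48.3, 46.8 and 49.3% in Control and 48.2, 46.9, 47.4 and 52.4% in Susceptible libraries. Of these 3 bodies, that of Slc32a1 was the nearest to the level of a start. Slc32a1 is much shorter than Gad1 and Gad2, and its start, at chr2:158610758, lies well inside the gene bounds. Its body therefore includes bases upstream of the start window, and the rest lies close downstream. The part of gene length and bounds in these body levels was not tested.

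Low methylation reached several kb beyond the pan-GABA starts. Outwards from the start in bins of 500 bp, the stretch ended where a bin read 50% or more, and bins under 10 calls were passed over. The low stretch was 12 ± 0.5 kb at Gad1, 10.9 ± 1.14 kb at Slc32a1 and 9.22 ± 2.03 kb at Gad2. At Gad1 it was 11.5 to 13.0 kb in the 9 libraries, 4.67 kb of it upstream and 7.33 kb downstream on average. At Gad2 it was 6.5 to 12.5 kb, and the plot of bins around each start shows isolated bins there above the 50% line, such as the bin centred 3.25 kb upstream at 60.8% in Control and 49.5% in Susceptible libraries.

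**Figure D2:**
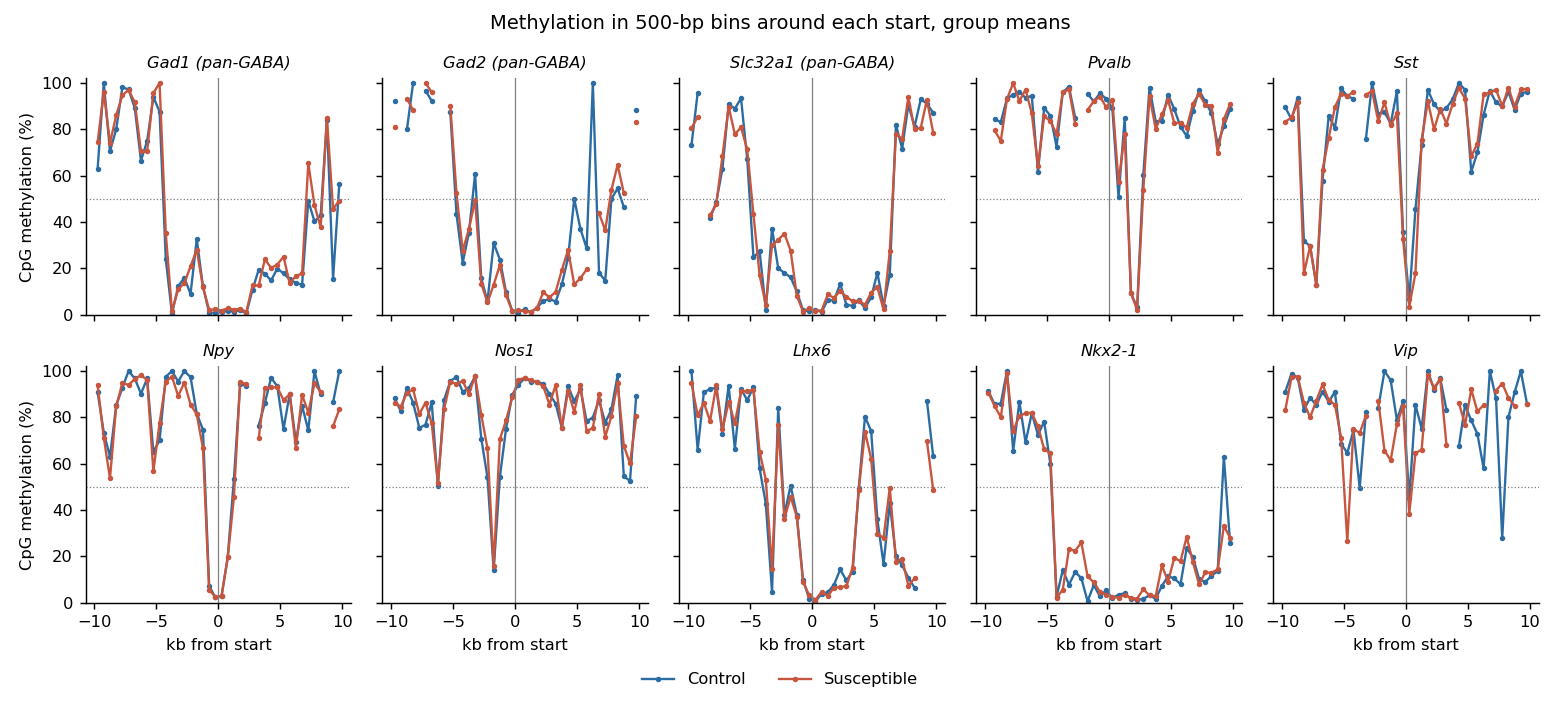
CpG methylation (%) in bins of 500 bp within 10 kb of each start, as the mean of the Control (blue) and Susceptible (red) libraries; the dotted line is at 50%, gaps are bins that no library of the group covers, and upstream is to the left. Troughs at Gad1, Gad2, Slc32a1 and Nkx2-1 are many kb wide, those of Npy and Sst are 2.28 and 1.28 kb, and Nos1 and Pvalb have troughs away from the start drawn at 0.

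Lhx6 and Nkx2-1 encode homeodomain transcription factors of the medial ganglionic eminence, the embryonic source of parvalbumin and somatostatin interneurons. Both starts read under 3% on average, and each was above Gad1 in every library but Susceptible 7. Nkx2-1 (chr12:56531935-56536908, minus strand), which acts first in that lineage, had 92 CpGs at its start and read 1.74, 3.78, 3.07, 3.22 and 2.02% in Control and 2.79, 3.51, 3.52 and 2.45% in Susceptible libraries. Lhx6 (chr2:36081950-36105992, minus strand), which Nkx2-1 activates, had 97 CpGs and read 3.62, 2.61, 2.12, 2.47 and 1.76% in Control and 4.01, 2.43, 3.37 and 2.06% in Susceptible libraries. The groups overlapped at both starts, and the Lhx6 and Nkx2-1 means of 2.72 and 2.90% differed from each other by less than their spread. Lhx6 has 3 starts in the RefSeq table, and the other two read 2.97 ± 0.46% and 5.24 ± 1.51%.

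The Nkx2-1 body was the lowest of the 10, 2.43 ± 0.61% over 224 CpGs, and only 0.297% of bodies tested were lower. Its low stretch was the widest, 16 ± 3 kb, running from 12 kb in Susceptible 6 to 22.5 kb in Susceptible 7. The Lhx6 body read 28.6 ± 2.62%, and its low stretch of 5.67 ± 0.61 kb was narrower than those of the 3 pan-GABA genes. Tiles along Lhx6 ran from 1.58% at the start tile, which lies in the start window, to 89.4% at 22.9 kb downstream. Beyond the window, the bin centred 1.25 kb downstream read 4.54% in Control and 2.95% in Susceptible libraries. The bin centred 4.25 kb downstream read 80.3 and 73.8%, so the body mean joins segments of very low and of high methylation.

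The peptide genes were spread between the extremes. Npy (chr6:49822710-49829507, plus strand) encodes neuropeptide Y, made with somatostatin in a class of striatal interneurons. Its start of 94 CpGs read 5.35, 6.54, 4.99, 8.56 and 5.14% in Control and 7.48, 6.06, 6.53 and 4.90% in Susceptible libraries, a mean of 6.17 ± 1.25%. That is above the median of 3.05% for the 9601 genes with 80 or more CpGs in the window, and higher than 76.4% of them. The low stretch at Npy was 2.28 ± 0.36 kb, and its body read 73.0 ± 7.68%.

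Sst (chr16:23889573-23891342, minus strand) encodes somatostatin. Its start window of 48 CpGs read 12.3, 26.7, 13.5, 25.2 and 19.6% in Control and 14.9, 11.9, 15.6 and 12.5% in Susceptible libraries. The 3 highest values were all Control libraries (3, 5 and 8), but Control 2 and 4 lay inside the Susceptible range. Control 5 and 8 are the libraries with high strand disagreement. Control 5 had the fewest CpGs and calls here, 24 and 497, where other libraries reached 48 and 2097. Over the 13 CpGs listed in all 9 libraries the mean was 22.3 ± 7.75%, and Susceptible minus Control was -7.22 points. The mean of 16.9 ± 5.64% was close to the median of 13.96% over 8299 genes with 40 to 79 CpGs. Near the start the level was lower still. The CpG inside TGACGTCA, 45 bases before the start, read 0.474 ± 0.88% over the 8 libraries that list it, while the outermost listed CpG of the printed stretch, 189 bases before the start, read 37.2 ± 12.5% in 6 libraries. The Sst body has only 5 listed CpGs beyond the window, and read 67.1 ± 11.9%.

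Vip (chr10:5639193-5647617, plus strand) encodes vasoactive intestinal peptide, and its start window is the poorest in CpGs, with 17. It read 61.5, 58.7, 75.2, 54.4 and 70.9% in Control and 62.5, 53.9, 55.3 and 44.8% in Susceptible libraries, from 196 to 491 calls over 8 to 14 CpGs. The groups overlapped, with the 2 highest values in Control 4 and 8 and the lowest in Susceptible 7. Its mean of 59.7 ± 9.23% was low for a CpG-poor start, since only 3.56% of 11150 genes with under 20 CpGs read less, against a class median of 87.1%. The level depends on which CpGs are listed. The 3 CpGs before the start read 75.9, 94.5 and 82.2%, and the CpG 37 bases after it read 24.5 ± 18.1% (3.12 to 58.8%). Over the 2 CpGs of the window that all 9 libraries list, the level was 20.9 ± 16.5%.

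Parvalbumin, the product of Pvalb (chr15:78191112-78206400, minus strand), buffers calcium in fast-spiking interneurons. At the upstream start the window of 24 CpGs read 92.9, 87.7, 92.1, 92.1 and 88.4% in Control and 91.0, 87.7, 93.1 and 87.1% in Susceptible libraries. All 9 values lay between 87.1 and 93.1%, and the mean of 90.2 ± 2.48% was near the median of 86.8% for 13538 genes with 20 to 39 CpGs. At the downstream start the window of 53 CpGs read 10.4 ± 3.20% (6.82 to 15.6%). The RefSeq promoter window there, 300 bases with 25 CGs, read 1.76 ± 1.2%, against 89.3 ± 8.46% at the upstream promoter. The tile that holds the downstream start, chr15:78204001-78205000, read 3.77 ± 1.63% and was the lowest of the 23 tiles tested near Pvalb. A description of Pvalb by its most upstream start therefore gives a methylated promoter and one by the downstream start an unmethylated promoter, in the same libraries.

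**Figure D3:**
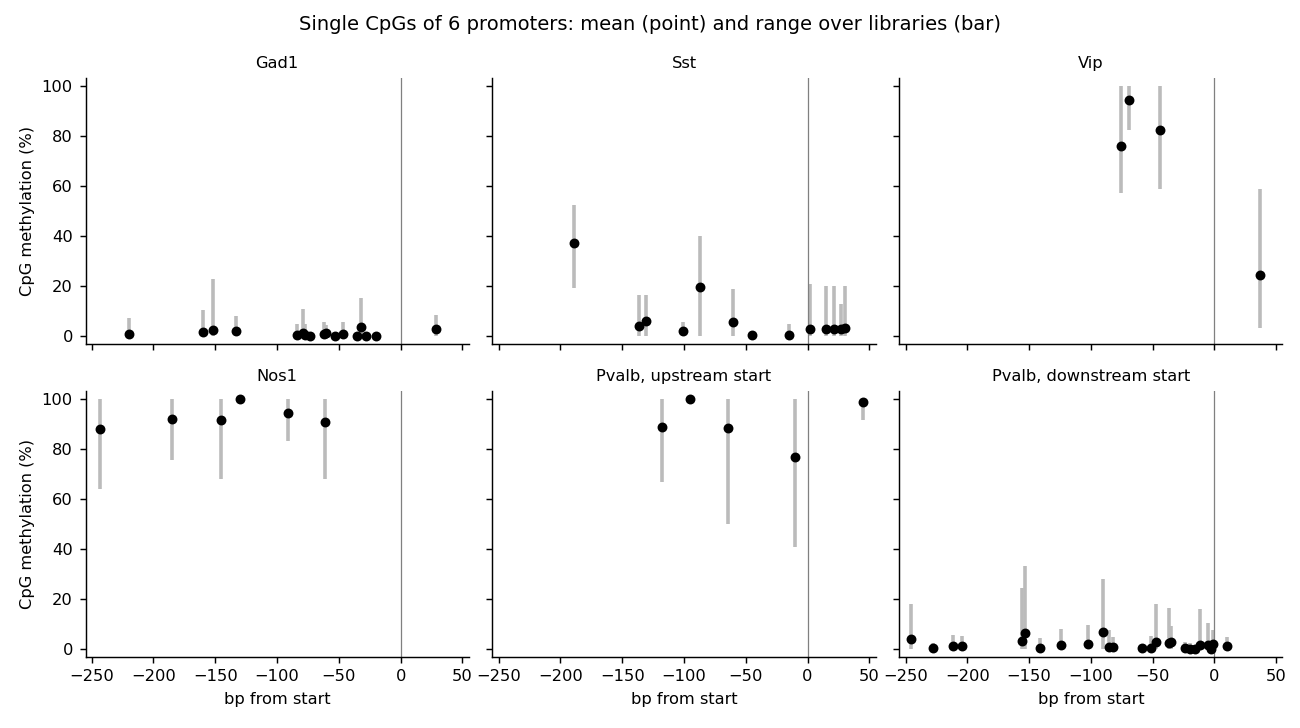
Methylation (%) of each listed CpG from 250 bp before to 50 bp after 6 starts; points are means over the libraries that list the CpG and grey bars run from the lowest to the highest library. CpGs of Gad1 and of the downstream Pvalb start sit near 0, those of Nos1 and the upstream Pvalb start near the top, those of Sst run from near 0 to 37.2%, and Vip holds both low and high CpGs.

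Nos1 (chr5:117866839-117958840, plus strand) encodes neuronal nitric oxide synthase. Its start window of 65 CpGs read 93.5, 92.4, 93.0, 79.6 and 91.6% in Control and 93.5, 94.1, 89.6 and 90.1% in Susceptible libraries. The value of Control 5 lay apart from the other 8, which ran from 89.6 to 94.1%. With 65 CpGs the window belongs to a class whose median was 13.96%, and the Nos1 mean of 90.8 ± 4.48% was higher than 91.3% of that class. The printed stretch ends in a run rich in C and T followed by AG. Whether transcription begins at this RefSeq start was not tested, so the rank need not be that of a promoter. In the printed stretch the CpG of the TGACG core, 130 bases before the start, was methylated in every call of the 7 libraries that list it. A trough lay upstream, where the bin centred 1.75 kb before the start read 14.05% in Control and 15.98% in Susceptible libraries. RefSeq's promoter table gives Nos1 a single start, so this trough is not at a start described here. The body read 84.1 ± 1.44%, close to the median of all bodies, and its lowest tile, 26.5 ± 5.51%, was at chr5:117901001-117902000, 34.7 kb into the gene.

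**Figure D4:**
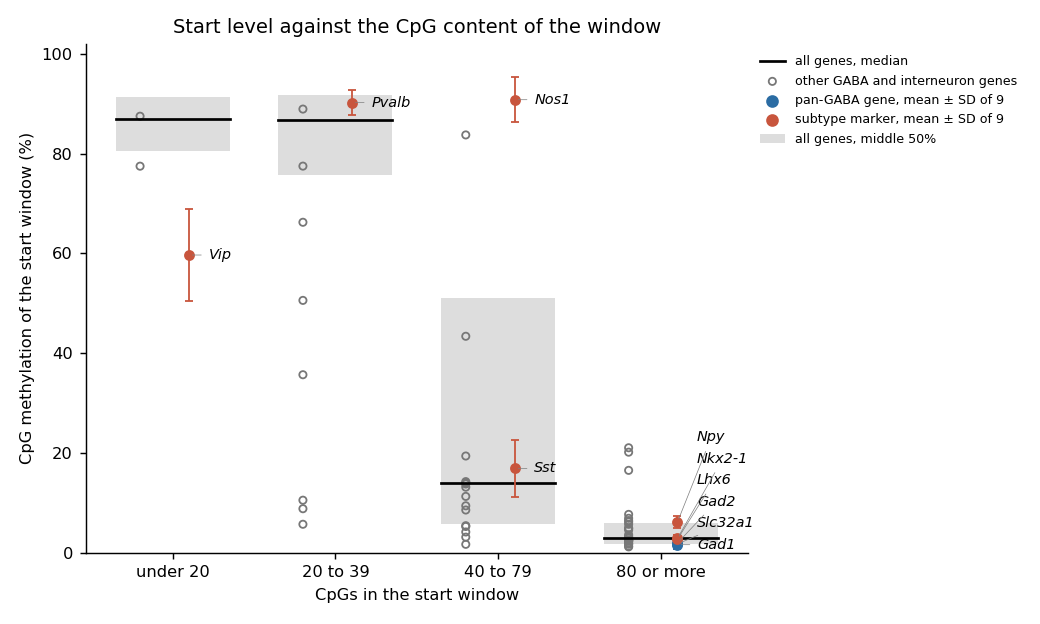
Start methylation (%) against the number of CpGs listed in the window, in 4 classes; grey boxes and black lines are the middle 50% and median of all 42588 starts tested, open circles 51 other GABA and interneuron genes, and filled points the 10 genes (mean ± SD, n = 9). Nos1 and Npy stand above the box of their class and Vip and Gad1 below, Npy and Gad1 only narrowly. The other genes of the 10 sit inside theirs.

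As sets, pan-GABA genes read lower than subtype markers in every library. The mean start level over the 3 pan-GABA genes was 1.78 ± 0.72% and over the 7 subtype markers 38.5 ± 1.76%, a gap of 36.7 ± 2.26 points (31.5 to 39.02). In bodies the means were 33.8 ± 1.82% and 57.8 ± 2.31%, a gap of 23.95 ± 3.43 points (16.9 to 27.4). The Pvalb body, at 69.1 ± 3.17%, includes the window of the downstream Pvalb start. Without Pvalb the body gap was 22.1 ± 3.63 points (15.2 to 25.7). The gap is not shared evenly by the markers. Lhx6, Nkx2-1 and Npy starts were under 10% like those of the pan-GABA genes, while Nos1, Vip and the upstream Pvalb start, the one used here, were over 50%. Of all starts with 80 or more CpGs, the class of those low starts, 88.5% read under 10%, and 59.4% of all starts read over 50%. Gad1, Gad2 and Slc32a1 starts read higher than 22.3, 30.1 and 25.9% of that class, whose median was 3.05%. With Pvalb read at its downstream start the marker mean was 27.1 ± 1.85% and the gap 25.3 ± 2.28 points (20.2 to 27.6). Without Nos1 the start gap was 28.0 points and without Slc32a1 the body gap was 10.5 points. CpG content also differs between the sets, with 90 to 144 CpGs in pan-GABA windows and 17 to 97 in marker windows, and its part in the gap was not tested. No p is given, as genes are not replicates.

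Susceptible 7 had the smallest gap at both regions, 31.5 points at starts and 16.9 points in bodies. It had the highest pan-GABA mean (3.38% at starts, 37.4% in bodies) and the lowest marker mean (34.8% and 54.3%). In the same library bodies of the striatal projection neuron genes were highest and those of the glial lists lowest, as given above. At starts it was lowest for cortical projection neurons, astrocytes and microglia, but Susceptible 6 was highest for the striatal list and Susceptible 3 lowest for oligodendrocytes. The part of this in the gap was not tested. Without it the gaps were 37.4 ± 1.19 and 24.8 ± 2.32 points over 8 libraries.

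**Figure D5:**
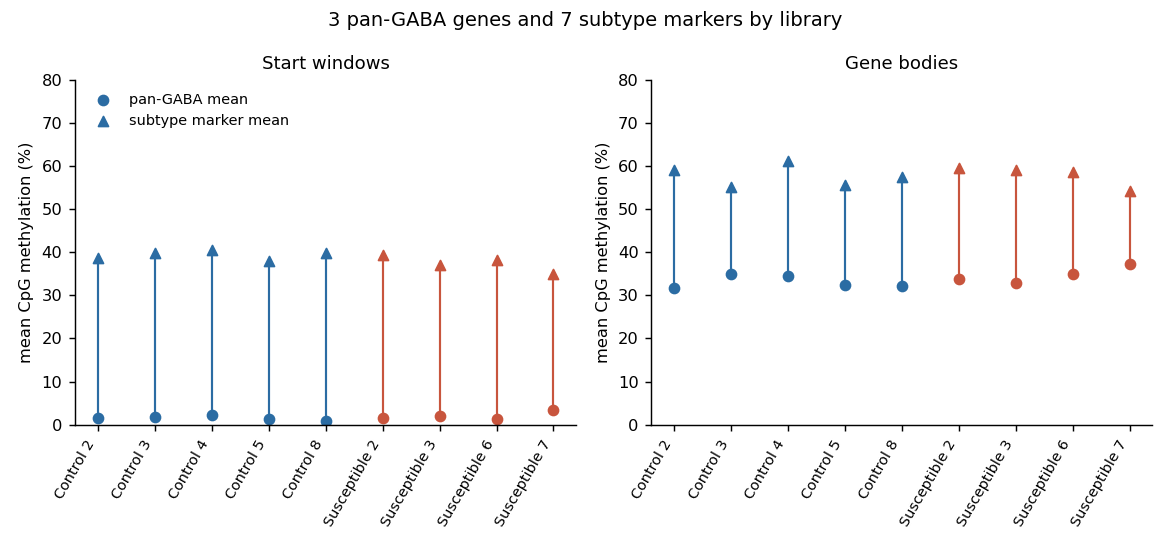
Mean methylation (%) of the 3 pan-GABA genes (circles) and the 7 subtype markers (triangles) in each library, at start windows (left) and in gene bodies (right), Control in blue and Susceptible in red. The marker mean lies above the pan-GABA mean in 9 of 9 libraries, and the shortest line in both panels is that of Susceptible 7.

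Between the groups no start of the 10 passed the test. The quasi-binomial fit across 42588 starts, with limma-moderated spread, called 0 of the 10 at an adjusted p under 0.05 (0% of all starts were called). At an unadjusted p under 0.05 it gave 0 of the 10, against 4.55% of all starts (2.17% higher and 2.38% lower in Susceptible libraries), and the limma fit on logit levels also gave 0. In single alternatives the unadjusted p was under 0.05 for Sst (without Control 2 or 4), Vip (without Susceptible 2) and Gad1 and Lhx6 (over CpGs listed in all 9 libraries), and the lowest adjusted p in any alternative at the 10 starts was 0.875. No start had groups that did not overlap, against 1.71% of all starts (0.85% higher and 0.857% lower). Mean levels were higher in Susceptible libraries at 7 of the 10 starts and lower at 3, where 48% of all starts were higher and 52% lower, with a median difference of +0.202 points against -0.0759 over all starts. Without Susceptible 7, and likewise without Control 8, the split was 5 higher and 5 lower, at starts and in bodies alike. The largest differences were at Vip, 64.1 ± 8.66% in Control and 54.1 ± 7.26% in Susceptible libraries (adjusted p = 0.989), and at Sst, 19.5 ± 6.55% and 13.7 ± 1.80% (adjusted p = 0.989). Over the 2 CpGs listed in all 9 libraries the Vip difference was +1.29 points, opposite in sign. Pan-GABA starts were 1.58 ± 0.52% in Control and 2.03 ± 0.94% in Susceptible libraries as a mean of the 3 genes, and 1.58 ± 0.35% in Susceptible libraries without Susceptible 7.

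In the bodies, 0 of the 10 genes passed at an adjusted p under 0.05 (0% of 32338 bodies), 1 of the 10 passed unadjusted against 3.89% of all bodies, and 0 had groups that did not overlap against 1.35% (0.618% higher, 0.73% lower). The limma fit on logit levels likewise gave 0 adjusted and 1 unadjusted. Mean levels were higher in Susceptible libraries in 6 of the 10 bodies and lower in 4, where 46.1% of all bodies were higher and 53.9% lower. The 1 gene was Nkx2-1, and 2.11% of all bodies passed unadjusted in its direction. Its body read 2.58, 2.27, 1.98, 1.88 and 1.51% in Control and 3.55, 2.68, 2.51 and 2.89% in Susceptible libraries. Only Susceptible 6 lay inside the Control range, below Control 2. The group means were 2.04 ± 0.40% and 2.91 ± 0.46%, with an unadjusted p of 0.0224 and an adjusted p of 0.9999. The part of unconverted cytosines at levels this low was not tested. Under 12 of 16 alternatives the unadjusted p stayed under 0.05, and it did not without Control 8, without Susceptible 2, over CpGs listed in all 9 libraries or with the replicate number as a block. Control 8, the lowest value, is 1 of the 2 libraries with high strand disagreement, and its part was not tested.

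Lhx6 and Gad1 bodies came next. The Lhx6 body read 27.7, 29.6, 26.6, 31.5 and 33.8% in Control and 27.99, 27.9, 26.4 and 25.9% in Susceptible libraries, with means of 29.9 ± 2.91% and 27.0 ± 1.06% (adjusted p = 0.9999). The 2 highest Lhx6 values were Control 5 and 8, the libraries with high strand disagreement. Gad1 bodies averaged 44.9 ± 2.39% in Control and 47.7 ± 2.53% in Susceptible libraries (adjusted p = 0.9999). Neither passed at an unadjusted p under 0.05, at 0.0648 and 0.0715. The Lhx6 body did so in 2 of 16 alternatives (without Control 2 or 4) and the Gad1 body in 4 of 16 (without Control 3, Susceptible 2 or Susceptible 3, and with a minimum of 20 calls), none with an adjusted p under 0.885. The Lhx6 difference of -2.82 points was -1.83 without Control 8, -1.07 with the start window kept in the body and -0.71 with the replicate number as a block. The Gad1 difference of +2.78 points was +1.80 without Susceptible 7, +1.71 over CpGs listed in all 9 libraries and +0.399 with the block.

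In tiles the picture was the same. Of 384 tiles within 5000 bp of the 10 genes, 269 were testable, 0 passed at an adjusted p under 0.05 (0% of 1041809 tiles) and 15 passed unadjusted. Those 15 are 5.58% of the tested tiles, against 4.38% of all tiles. Of them 11 were higher in Susceptible libraries (2.18% of all tiles were) and 4 lower (2.19%). Groups did not overlap in 5 tiles (1.86%), against 1.56% of all tiles, 1 of them higher (0.598% of all tiles) and 4 lower (0.96%). Nkx2-1 held 4 of its 15 tested tiles among those passing unadjusted, all higher in Susceptible libraries.

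The 5 tiles of smallest unadjusted p all had an adjusted p of 0.997. The first was chr2:36089001-36090000, 15.9 kb into Lhx6, with 65.0, 74.8, 59.3, 65.6 and 74.1% in Control and 58.0, 58.5, 52.3 and 42.9% in Susceptible libraries. Every Susceptible value there was below every Control value, and the lowest was Susceptible 7. Next was chr2:70592001-70593000, 30.4 kb into Gad1, at 42.6 ± 13.2% in Control and 63.0 ± 11.3% in Susceptible libraries. At -2.59 kb from the Nkx2-1 start, chr12:56539001-56540000 read 12.9 ± 3.10% and 25.1 ± 15.5%, and Susceptible 6 alone reached 47.1%. Without Susceptible 6 the difference fell from 12.2 to 4.88 points (unadjusted p = 0.158, adjusted p = 1 in the quasi-binomial fit). At -2.63 kb from the Gad1 start, chr2:70559001-70560000 read 10.7 ± 5.29% and 17.9 ± 0.61%, where the 4 Susceptible values lay between 17.2 and 18.7% and Control 5 at 19.0%. In Nos1, chr5:117900001-117901000 at 33.7 kb read 63.5 ± 5.61% and 73.1 ± 4.43%, next to the lowest tile of that gene.

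The other 4 tiles whose groups did not overlap were named after their values were seen. The tile over the Sst start, chr16:23890001-23891000, read 4.84, 6.20, 5.35, 10.7 and 8.25% in Control and 3.41, 4.57, 4.34 and 3.59% in Susceptible libraries (adjusted p = 0.997). The highest values were Control 5 and Control 8, the libraries with high strand disagreement, and Control 2, the lowest Control library, lay close above Susceptible 3. Within Nkx2-1, chr12:56534001-56535000 read 1.34 ± 0.69% in Control and 2.49 ± 0.48% in Susceptible libraries over 77 CpGs. Below Sst, chr16:23888001-23889000 read 90.2 ± 4.22% and 85.1 ± 1.07%. Upstream of Npy, chr6:49820001-49821000 read 95.1 ± 2.99% and 86.9 ± 3.44%.

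The lowest tile lay close to the start for Gad1 (1.62%), Gad2 (1.35%), Slc32a1 (1.56%), Lhx6 (1.58%), Npy (2.85%), Sst (5.69%) and Vip (58.7%). The lowest tiles of Nkx2-1 (1.85%, at 2.41 kb), Pvalb (3.77%, at 1.90 kb) and Nos1 (26.5%) lay further in. Highest tiles read 88.5% in Gad1, 91.1% in Gad2, 87.6% beyond Slc32a1, 94.3% before Pvalb, 94.5% before Sst, 92.1% beyond Npy, 96.2% just inside the Nos1 start, 89.4% in Lhx6 and 86.2% in Vip. At Nkx2-1 no tested tile passed 50%, and the highest, at 10.4 kb, read 41.9 ± 10.7%. The highest tile of Nos1, chr5:117867001-117868000, was thus centred 0.662 kb from its RefSeq start, while the lowest tiles of Gad1, Slc32a1, Lhx6, Npy and Sst were centred within 0.743 kb of theirs.

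A wider list of 51 genes set the 10 in context. It holds 6 genes of GABA handling, 22 interneuron transcription factors and 23 subtype and peptide genes, and 0 passed at an adjusted p under 0.05 at the start. All 6 handling genes were lower on average in Susceptible libraries, as were 52% of all starts, and 2 passed unadjusted in that direction, as did 2.38% of all starts. These were the GABA transporter genes Slc6a11 (22.6 ± 0.98% in Control, 19.1 ± 3.15% in Susceptible) and Slc6a13 (69.96 ± 7.61% and 61.6 ± 1.64%), which encode GAT3 and GAT2. Without Susceptible 7 all 6 were still lower, but 0 passed unadjusted. No transcription factor passed unadjusted, with 11 of 22 higher and 11 lower. Of the 22 starts 17 read under 10%, against 28.6% of all starts and 88.5% of those with 80 or more CpGs. Among subtype and peptide genes 1 of 23 passed unadjusted, against 4.55% of all starts. It was Ndnf, which marks neurogliaform cells in cortex. Its start read 3.45 ± 0.66% in Control and 5.95 ± 1.07% in Susceptible libraries, with groups that did not overlap (adjusted p = 0.989), as at 0.85% of all starts in that direction.

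The lowest starts of that list were Maf (1.19%), Nr2f1 (1.31%) and Etv1 (1.70%), all transcription factors. Its highest were Htr3a (88.95%), which encodes a subunit of the serotonin-gated channel, Crhr2 (87.5%), a receptor of the corticotropin-releasing hormone family, and Cort (83.8%), which encodes the somatostatin-like peptide cortistatin. With 48 CpGs, Cort resembles Nos1 in reading high at a CpG content whose class median was 13.96%.

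Marker lists of the other cells in the punch were compared between the groups in the same fits. Bodies of the 8 striatal projection neuron genes were all higher on average in Susceptible libraries, as were 46.1% of all bodies. Rgs9 and Foxp1, 2 of the 8, passed unadjusted in that direction, against 2.11% of all bodies, and 0 passed adjusted. Their mean ran from 55.01 to 60.6% in Control and from 57.0 to 68.9% in Susceptible libraries, and the 2 highest were Susceptible 6 and 7. All 8 were still higher and 0 passed unadjusted without Susceptible 7, without Control 5 or without Control 8. The median difference of 4.17 points was 2.12, 4.46 and 3.61 points in those fits. All 6 astrocyte bodies were lower on average in Susceptible libraries, where the list mean ran from 71.1 to 76.5% against 75.6 to 78.1% in Control. Without Susceptible 7, 4 of the 6 astrocyte bodies were lower and 2 higher. Gja1 among astrocyte and Mag among oligodendrocyte bodies passed unadjusted, both lower (p = 0.0126 and 0.0312, adjusted p = 0.9999 in the quasi-binomial fit), against 1.78% of all bodies. Gja1 also did so without Susceptible 7, Control 5 or Control 8, and Mag in none of those fits. Other bodies passed unadjusted only in those fits. They were Mbp (without Susceptible 7 or Control 5), Emx1 (without Control 5), Neurod6 (without Susceptible 7) and Gfap (without Control 8). Body means of the cortical projection neuron, oligodendrocyte and microglia lists also overlapped between the groups, with 4, 4 and 5 of 6 genes lower on average in Susceptible libraries, and 3, 3 and 4 without Susceptible 7. At starts, Foxp1 of the striatal list read 2.85 ± 0.97% in Control and 4.74 ± 1.22% in Susceptible libraries without overlap (adjusted p = 0.989). Of all starts, 0.85% were free of overlap in that direction and 2.17% passed unadjusted in it. Foxp1 passed unadjusted with all 9 libraries and also without Susceptible 7, Control 5 or Control 8. The start of the microglial gene Tmem119 was lower without overlap, as were 0.857% of all starts. It read 88.8 ± 1.55% in Control and 85.7 ± 2.05% in Susceptible libraries, and did not pass unadjusted. With all 9 libraries no other start of these lists passed unadjusted or was free of overlap. Without Control 8 the Tbr1 and Cnp starts also passed unadjusted. Of the astrocyte starts 5 of 6 were lower on average in Susceptible libraries, and 3 of 6 without Susceptible 7. The part of these lists in the differences of the 10 genes was not tested.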

How the data were processed

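Per the labels' protocols, a Qiagen micro kit gave the DNA and Zymo's Pico Methyl-seq kit the libraries. The submitters' processing notes name Bismark, Bowtie, Picard and mm10 without roles or versions. Per the file headers, each deposited file gives a coverage count per cytosine and the percent of C and percent of T among those calls. The minimum of 10 calls was already applied in the deposited files, so totals are not full depth.

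Methylated calls were coverage times the percent of C, and the strands of a CpG were added. Starts came from the RefSeq promoter table of GRCm38.p6 for 26794 genes, all 10 described here among them, and the CpG-richer gene end stood in for 22760 genes without a strand. A window, body or tile was tested where every library had 3 or more CpGs and 20 or more calls. Each was tested with a quasi-binomial logistic model, its dispersion moderated by squeezeVar of limma 3.58.1 in R 4.3.3 and kept at 1 or more, with Benjamini-Hochberg adjustment over all features. The tests were also run on simulated start windows, with the same dispersion in every library and changes only at intermediate levels. That run cannot show how they behave at very low or high levels, or with the unequal strand disagreement seen here. Whether repeated reads of a molecule were removed before deposit is not given in the sources used here. Strand disagreement was above binomial noise in every library, so the number of calls alone can overstate precision. CpG classes count listed CpGs in the window.

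The genes, lists and windows were chosen with earlier results of these data known. All 10 genes are named. Tiles named are the 5 of smallest unadjusted p and the lowest and highest of each gene, and 4 more, named after their values were seen, whose groups did not overlap. Of the wider list, genes passing unadjusted or without overlap at the start and the 3 lowest and 3 highest are named. Alternatives covered windows, call minimum, shared CpGs, very covered CpGs, weighting, another test, strand noise, each library and gene left out, and the replicate number as a block. Marker and wider lists without Susceptible 7, Control 5 or Control 8 were added after seeing the data, as was the downstream Pvalb start.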

Additional observations from a re-analysis of the deposited data

Results flagged for a closer look

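Levels of the 10 genes at starts and bodies were screened within each group, 40 groups of 4 or 5 libraries in all, for a library far from the others, which chance gives in about 1 of 20 groups. At the Nos1 start, Control 5 read 79.6%, while the other Control libraries read 91.6 to 93.5%. Without Control 5 the Nos1 difference between the groups turned from +1.79 to -0.809 points. In the Nos1 body, Susceptible 7 read 80.96%, while the other Susceptible libraries read 84.3 to 84.8%. Control 5 is also a library with high strand disagreement and Susceptible 7 the library with the highest striatal marker bodies. The part of either in these values was not tested.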

How the results depend on the processing

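No gene of the 10 passed at an adjusted p under 0.05 in any alternative run, at starts (169 results, 155 with the direction kept), bodies (160, 153 kept) or the 5 named tiles (74, all kept). Leaving out each library in turn gave 0 to 1 calls among all tiles, the 1 call without Control 4, and 0 among starts and bodies. Only a number is shared by Control and Susceptible 2 and by Control and Susceptible 3, whose deviations over starts correlated at 0.0185 and -0.025. With the replicate number as a block, over those 4 libraries with 1 residual degree of freedom, 593 tiles were called and 0 starts and 0 bodies, and none of the 10 genes. The Gad1 tile at 30.4 kb differed by 3.01 points in that fit. That fit turned the Slc32a1 start to -0.497, the Slc32a1 body to -0.301 and the Nos1 body to +0.577 points. Windows of 500 bp turned the Pvalb start difference to +0.0407, and 2000 bp turned it to +1.06 and Npy to -1.76. A minimum of 20 calls turned the Npy start to -0.1998. CpGs listed in all 9 libraries turned the Pvalb start to +0.424 and the Vip body to -2.94, and keeping the start window turned the Sst body to -4.41 points. With a library left out, differences ran from -0.511 to +0.793 at the Gad2 start, -0.128 to +0.312 at Slc32a1, -0.809 to +2.65 at Nos1 and -0.287 to +0.735 at Npy. In bodies they ran from -0.36 to +1.49 for Gad2 and from -0.823 to +8.08 for Sst.

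The start gap between subtype markers and pan-GABA genes was 32.2 points over CpGs listed in all 9 libraries. It was 25.3 with Pvalb read at its downstream start (chosen after seeing the data), 28.1 without Pvalb, 28.0 without Nos1, 33.2 without Vip, 40.3 without Sst, 42.1 without Npy, 42.7 without Lhx6 and 42.6 without Nkx2-1. The body gap was 30.1 without Gad1, 31.2 without Gad2, 10.5 without Slc32a1, 19.6 without Nos1, 28.8 without Lhx6, 33.2 without Nkx2-1 and 20.2 without Vip, and never changed sign. The median start of the 10 genes moved from 4.54% to 2.41% at 500 bp and 10.7% at 2000 bp, and the median body from 57.7% to 48.3% over shared CpGs and 60.3% with equal CpG weight. The median low stretch moved from 3.97 kb to 3.25 kb at a limit of 30% and 4.5 kb in bins of 1000 bp. By gene, the limit of 30% gave 9.28 ± 1.87 kb at Gad1, 8.89 ± 1.17 kb at Slc32a1, 7.28 ± 1.56 kb at Gad2 and 11.2 ± 2.61 kb at Nkx2-1. Bins of 1000 bp gave 12.7, 11.0, 11.9 and 19.1 kb in that order. Of 20 alternatives for single genes, 9 moved by more than the SD over libraries. The cause of these moves was not tested. Sites under 10 calls are not listed, so CpG-poor genes such as Vip rest on few CpGs.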

Other observations

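Cholinergic interneurons, the other large interneuron class of the striatum, were read through Chat, which encodes the acetylcholine-synthesising enzyme, and Slc5a7, the choline transporter. The Chat start read 43.4 ± 6.72% and the Slc5a7 start 14.3 ± 3.66% over the 9 libraries, both with overlapping groups. For the Slc5a7 body, all 4 Susceptible values lay above all 5 Control values (unadjusted p = 0.00625, adjusted p = 0.9999), where 0.618% of all bodies did so. That gene was named after its values were seen. It belongs to the 23 subtype and peptide genes, of which 18 bodies were lower and 5 higher on average in Susceptible libraries, or 14 and 9 without Susceptible 7.

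Bodies of the 22 interneuron transcription factors were lower on average in Susceptible libraries in 17 and higher in 5, where 53.9% of all bodies were lower. Npas1, Sp8 and Zic1 passed unadjusted, all lower, against 1.78% of all bodies, and 0 passed adjusted. Without Susceptible 7 the split was 13 lower and 9 higher, the median difference was -0.507 in place of -1.46 points, and Npas1 alone passed unadjusted. Without Control 5 Zic1 did not pass, and without Control 8 Sp8 did not. The mean over all 22 ran from 31.3 to 34.1% in Control and from 27.3 to 32.1% in Susceptible libraries. Upstream of Sst a second trough was seen, where the bin centred 7.25 kb before the start read 12.9% in Control and 13.0% in Susceptible libraries.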
